A study of Mus musculus with 6 samples.

Results

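Expression of 10 desmosome genes was examined in 6 spontaneous subcutaneous tumors of NT3 mice. The members were taken by name as the entries Dsg1a, Dsg2, Dsg3, Dsc2, Dsc3, Dsp, Jup, Pkp1, Pkp2 and Pkp3 of the deposited gene table, and all 10 were found among its 23358 entries. NT3 is an allele of NF-κB inducing kinase that lacks the TRAF3 binding domain, placed in the ROSA26 locus behind a loxP-flanked STOP cassette, and all 6 mice carried it. In Osx-Cre;NT3 mice (n = 3, tumors 13, 18 and 25) recombination was driven by the Osterix (Sp7) promoter, a promoter of the osteoblast lineage, through a doxycycline-repressible GFP::Cre, with doxycycline chow given until weaning. In FSP1-Cre;NT3 mice (n = 3, tumors 27, 29 and 36) recombination was driven by the promoter of Fibroblast-specific protein 1 (S100a4), which is also active in myeloid cells. For both drivers the paper cites activity outside the mesenchymal lineage, mainly in hematopoietic cells. It also found Osx-Cre activity in rare dermal fibroblasts.

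Each tumor came from a different female mouse. Tumors 13, 18 and 25 grew on the trunk, with latencies of 150, 168 and 115 days. Tumor 29 was also from the trunk and had a latency of 72 days, whereas tumors 27 and 36 were perineal, with latencies of 101 and 52 days. The Osx-Cre strain was mixed, of C57Bl/6J and CD1, the FSP1-Cre strain was FVB/n and the NT3 strain C57Bl/6J, so that line, strain background, latency and, for all but tumor 29, site cannot be told apart. The submitters' average RNA integrity number was 8.5 for the FSP1-Cre;NT3 tumors, above the 7.7 of the other line, and its part in the differences below was not tested. Benign tissues were not analysed here, so the levels describe excised tumors only, including any skin left on them.

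Desmosomes are the spot-like junctions that anchor the keratin filaments of neighboring epithelial cells to each other, and those of heart muscle anchor desmin. The desmogleins and desmocollins are cadherins that span the membrane and meet between the cells. Plakoglobin (Jup) and the plakophilins are armadillo proteins that bind the cadherin tails, and desmoplakin (Dsp) ties this plaque to the filaments. Dsg1, Dsg3, Dsc3 and Pkp1 are best known from stratified epithelia such as epidermis, while Dsg2, Dsc2 and Pkp2 also serve simple epithelia and heart. Skin fibroblasts do not build desmosomes.

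The plaque genes are scattered over the genome (mm10), with Dsp at chr13:38151294-38198577 on the plus strand, Jup at chr11:100368856-100397790 on the minus strand, Pkp1 at chr1:135871395-135919024 on the minus strand, Pkp2 at chr16:16213345-16272712 on the plus strand and Pkp3 at chr7:141078229-141090510 on the plus strand. RefSeq promoter windows (GRCm38.p6) were held for 2 of the 10 members, Dsp and Jup. They are shown because NIK signals to NF-κB, whose κB sites share a core of 3 G, any 5 bases and 2 C, and capitals mark the matches to that core on either strand in the 250 bases before the start.

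Dsp, chr13:38151044-38151293, plus strand: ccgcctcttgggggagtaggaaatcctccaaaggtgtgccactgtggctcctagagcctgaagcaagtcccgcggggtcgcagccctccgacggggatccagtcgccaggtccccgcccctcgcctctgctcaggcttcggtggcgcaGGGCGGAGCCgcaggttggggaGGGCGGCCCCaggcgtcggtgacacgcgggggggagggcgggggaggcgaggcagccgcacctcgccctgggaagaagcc
Jup, chr11:100397791-100398040, minus strand: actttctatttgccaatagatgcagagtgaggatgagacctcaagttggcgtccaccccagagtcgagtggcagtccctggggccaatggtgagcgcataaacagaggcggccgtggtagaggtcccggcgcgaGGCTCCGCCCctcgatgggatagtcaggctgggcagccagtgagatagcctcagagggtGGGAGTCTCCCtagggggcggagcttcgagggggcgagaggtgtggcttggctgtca

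The Dsp window held 2 matches, beginning 102 and 80 bases before the start, and the Jup window held 3, at -116, -57 and -56, the last 2 of which overlap in 1 run. A match to this short core is common, since 45.8% of the 32851 promoter windows of this length hold one, and both windows are GC-rich (72.4% for Dsp and 62% for Jup against a median of 52.4%). Neither window held the AP-1 site TGANTCA (6.75% of windows), the E-box CACCTG bound by Snail and ZEB proteins (17.2%), the p63 core (0.490%) or the TATA box TATAAA (12.4%). These are letter matches only. No binding was measured.

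All 10 members were expressed in every tumor. Levels of different genes were compared in the deposited RPKM, which divide the counts by gene length and library size. Pkp3, a plakophilin of most epithelia, had the highest mean at 49.4 ± 11.4 RPKM (SD, n = 6), followed by Pkp1, the plakophilin of stratified epithelia, at 47.2 ± 14.5, Dsp at 46.2 ± 25.8 and Dsg1a, the main desmoglein of the upper epidermis, at 44.8 ± 14.7. Dsg2, the most widely expressed desmoglein, and Jup were close to each other at 33.1 ± 10.8 and 32.9 ± 10.02. The desmocollins Dsc3 and Dsc2 had 19.1 ± 8.45 and 14.3 ± 5.27, Pkp2 had 8.89 ± 3.04, and Dsg3, the desmoglein of basal epidermis and oral mucosa, was lowest at 2.00 ± 1.52. By mean RPKM, Pkp3 ranked 1228 and Dsg3 11227 among the 23358 entries. The deposited Dsg3 entry ends 6149 bases short of the gene in GENCODE, whereas the ends of the other members differ by at most 254 bases. Reads beyond that end would not be counted, and their part in the low level of Dsg3 was not tested.

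**Figure D1:**
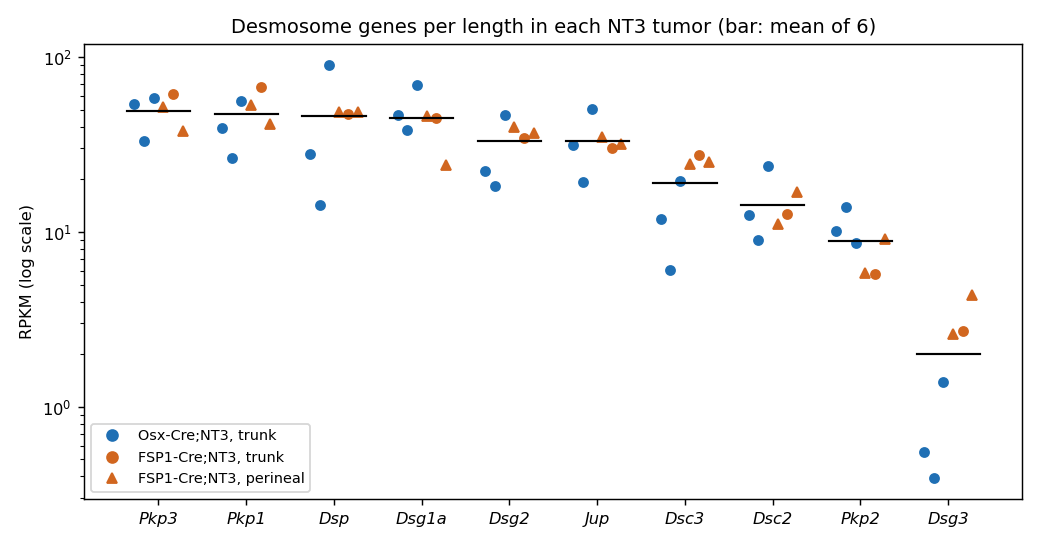
RPKM of each desmosome gene (log axis) in the 6 tumors, genes ordered by their mean (bar). The first 4 genes lie close together at means from 44.8 to 49.4, and Dsg3 lies lowest, with the 3 Osx-Cre;NT3 tumors at the bottom.

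No step of the order passed the test. With 6 tumors, a few steps alone could not pass after adjustment, so the test cannot decide them. Of the 9 pairs of neighbors, Jup was above Dsc3 in 6 of 6 tumors (1.87-fold on average) and Pkp2 above Dsg3 in 6 of 6 (5.86-fold). For both the exact two-sided sign-flip permutation test gave p = 0.031, the smallest that 6 tumors allow, and 0.141 after Benjamini-Hochberg adjustment over the 9 pairs. The other 7 pairs changed order in at least 1 tumor and did not differ beyond their spread. By family, the summed level was 105 ± 22.4 RPKM for the 3 plakophilins, 79.9 ± 21.7 for the 3 desmogleins and 33.4 ± 11.3 for the 2 desmocollins (SD, n = 6).

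The 5 cadherins among the members lie in 1 cluster on chromosome 18 of mm10. Dsc3 (chr18:19960930-20002097) and Dsc2 (chr18:20030798-20059505) are on the minus strand, followed by Dsg1a (chr18:20310873-20343353), Dsg3 (chr18:20510304-20541310) and Dsg2 (chr18:20558116-20604526) on the plus strand. Per length, the other cadherin genes of the cluster were below Dsg1a, Dsg2, Dsc2 and Dsc3 in every tumor. Dsg1b, a near-identical copy of Dsg1a, had from 9.24 to 32.4 CPM (read counts scaled to library size, after TMM), Dsg1c from 0.188 to 0.737 CPM, and reads shared between these copies make the 3 values uncertain. Dsc1, the desmocollin of cornifying layers, had 3.81, 0.831 and 2.00 CPM in tumors 13, 18 and 25, against 1.60, 2.67 and 32.5 CPM in tumors 27, 29 and 36. Dsg4, a desmoglein of the hair shaft, reached 3.44 CPM in tumor 36 and at most 0.451 CPM in the other 5. Both were thus highest in tumor 36. That tumor also had the highest summed CPM of the 8 hair follicle markers, 564 against 22.2 to 206 in the other tumors, and of the 7 suprabasal markers, 1039 against 67.3 to 505, and the part of these cells was not tested.

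**Figure D2:**
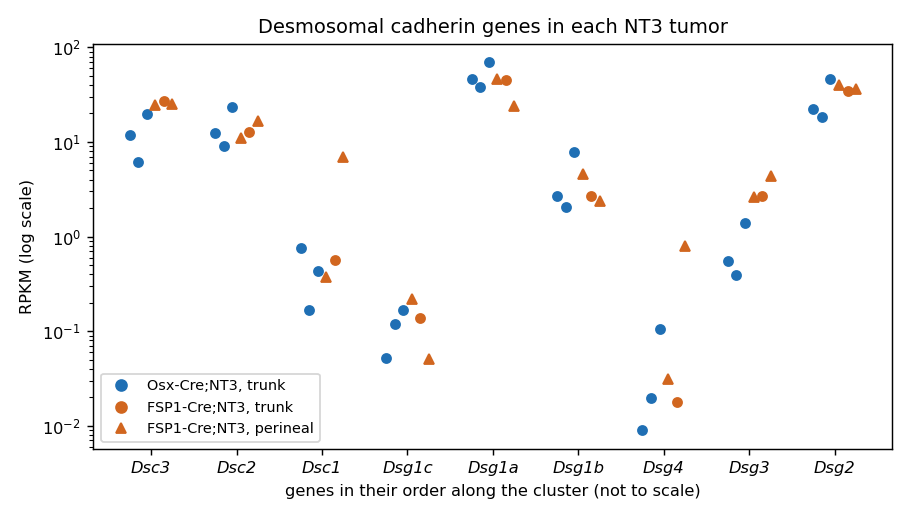
RPKM (log axis) of the 9 desmosomal cadherin genes in each tumor, placed in their order along the chromosome 18 cluster and not to scale. Dsg1a, Dsg2, Dsc2 and Dsc3 are high in all 6 tumors, while Dsc1, Dsg1c and Dsg4 are low, with Dsc1 and Dsg4 highest in tumor 36.

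The lines were compared to ask whether tumors arising under the 2 Cre drivers differ. Dsg3 and Dsc3, the partner cadherins of basal keratinocytes, were higher in every FSP1-Cre;NT3 tumor than in any Osx-Cre;NT3 tumor, and the other 8 members overlapped between the lines. No member passed the test across all genes: edgeR called 0 of 10 at an adjusted p under 0.05, as it called 0% of the 16415 genes tested. At an unadjusted p under 0.05, Dsg3 and Dsc3 were higher in FSP1-Cre;NT3 tumors, where 7.31% of all genes were, and Pkp2 was lower, where 3.47% were. Dsg3 kept such a p without each tumor in turn and with site as a covariate, Dsc3 lost it without tumor 13, 27, 29 or 36 and Pkp2 without tumor 13, 18, 27 or 29, and both lost it with that covariate and in trunk tumors alone. Pkp2 also lost it with library sizes alone and with a filter of at least 10 counts in every tumor. The median log2 fold change of the members was 0.01, against 0.01 for all genes tested. In bulk tumors, fewer cells of a type and less RNA per cell cannot be told apart.

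Among the desmogleins, Dsg3 had 3.02, 2.12 and 6.98 CPM in Osx-Cre;NT3 tumors 13, 18 and 25, against 12.1, 13.9 and 22.2 CPM in FSP1-Cre;NT3 tumors 27, 29 and 36. The lines did not overlap, and their means were 4.04 ± 2.59 and 16.1 ± 5.40 CPM (SD, n = 3). This was a 3.97-fold difference (log2 1.99, SE 0.52), with an adjusted p of 0.441 by edgeR. DESeq2, the tool the study names, gave a log2 fold change of 1.98 with an adjusted p of 0.0135, and Dsg3 was the member it called, with 2.11% of all genes called higher and 0.396% lower by that tool.

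The DESeq2 call of Dsg3 rested on single tumors. Without tumor 13 its adjusted p was 0.142 and without tumor 36 it was 0.155, while without tumor 18, 27 or 29 it was at most 0.0401. Without tumor 25, DESeq2 called 5 members, Dsg3, Dsg2, Dsc3 and Dsp higher and Pkp2 lower in FSP1-Cre;NT3 tumors, where it called 9.66% of the 16820 genes tested higher and 12% lower. By contrast, edgeR called 0 members without tumor 25, and its lowest adjusted p, that of Dsg3, was 0.0715.

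Dsg1a had 349, 284 and 479.9 CPM in tumors 13, 18 and 25, against 292, 315 and 167 CPM in tumors 27, 29 and 36. Tumor 36 was lowest and tumor 25 highest, the lines overlapped, and the log2 difference of -0.52 (SE 0.32) was within the spread (edgeR adjusted p = 0.510). Dsg2 had 171, 138 and 329 CPM in Osx-Cre;NT3 tumors, and 259, 248 and 259.7 CPM in FSP1-Cre;NT3 tumors. The 3 FSP1-Cre;NT3 tumors lay within the range of the other line, and the log2 difference was 0.26 (SE 0.34, edgeR adjusted p = 0.754).

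Among the desmocollins, Dsc3 had 83.6, 42.5 and 128 CPM in tumors 13, 18 and 25, against 147, 182 and 165 CPM in tumors 27, 29 and 36. The lines did not overlap, but tumors 25 and 27 lay close. The means were 84.7 ± 42.7 and 165 ± 17.7 CPM (SD, n = 3), a 1.95-fold difference (log2 0.96, SE 0.38) with an adjusted p of 0.458 by edgeR. Dsc2, the desmocollin of wider distribution, had 73.2, 52.6 and 129 CPM against 55.4, 70.1 and 92.1 CPM. Its lines overlapped fully (log2 -0.23, SE 0.36, edgeR adjusted p = 0.809). Having 2 members without overlap in the higher direction and 0 in the lower compares with 9.03% and 7.97% of all genes.

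The plaque genes showed no difference between the lines past the test. Dsp had 356, 179.8 and 1066 CPM in tumors 13, 18 and 25, against 529, 569.6 and 574 CPM in tumors 27, 29 and 36. The widest spread of any member within 1 line was thus that of Dsp in Osx-Cre;NT3 tumors, and the line difference was 0.06 on the log2 scale (SE 0.60, edgeR adjusted p = 0.972). Jup had 209, 127 and 309 CPM against 197, 189.7 and 197 CPM, again with the FSP1-Cre;NT3 tumors inside the range of the other line (log2 -0.14, SE 0.32, edgeR adjusted p = 0.865).

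Pkp1 had 235, 156 and 309 CPM in Osx-Cre;NT3 tumors and 269, 378 and 229 CPM in FSP1-Cre;NT3 tumors (log2 0.32, SE 0.32, edgeR adjusted p = 0.672). Pkp3 had 218, 134 and 218 CPM against 178, 236 and 143 CPM, the narrowest range of the 10 members at 1.76-fold from the lowest to the highest tumor. Both overlapped between the lines. Pkp2, the plakophilin of simple epithelia and heart, ran the other way with 39.0, 53.0 and 30.6 CPM in tumors 13, 18 and 25, against 19.0, 20.8 and 32.8 CPM in tumors 27, 29 and 36. Tumor 36 lay above tumor 25, so the lines overlapped, and the 0.592-fold difference (log2 -0.76, SE 0.31) had an adjusted p of 0.458 by edgeR.

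**Figure D3:**
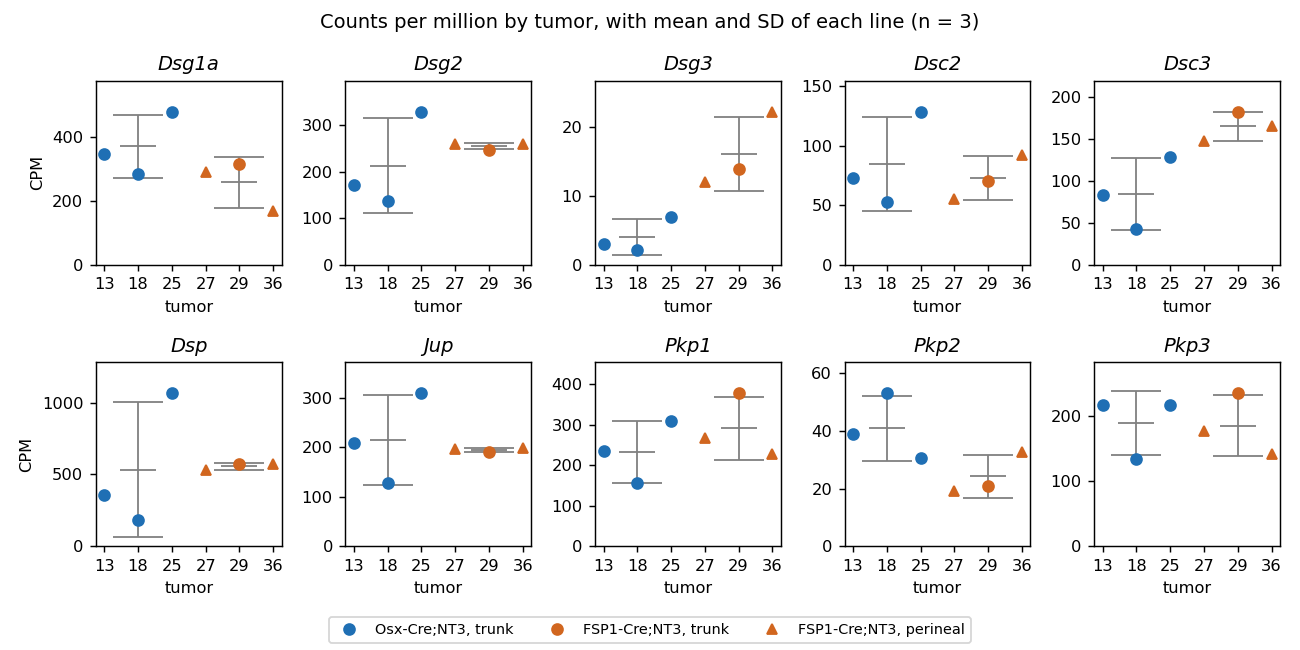
CPM of each member in each tumor, with grey bars for the mean and SD of the 3 tumors of a line. Only Dsg3 and Dsc3 have no overlap between the lines, and the FSP1-Cre;NT3 tumors lie close together for Dsg2, Dsp and Jup while the Osx-Cre;NT3 tumors are spread.

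Most members were spread more widely among Osx-Cre;NT3 than among FSP1-Cre;NT3 tumors. Tumor 18 had the lowest CPM of the 6 tumors for 8 of 10 members, where 25.2% of all genes had theirs, and tumor 25 had the highest for 5 of 10, where 21.9% of all genes did. Within Osx-Cre;NT3, 9 of 10 members fell in the order tumor 25, 13, 18, an order that 29.6% of all genes had, although Pkp3 was nearly equal in tumors 25 and 13. Pkp2 had the reverse order. The order was not particular to the members. The summed CPM of the 10 adherens junction genes described below also had it, with 3354, 2517 and 2010 in tumors 25, 13 and 18. Among those genes Ctnnb1 did not, with 1001, 1051 and 971 CPM. The coefficient of variation of Dsp was 87.8% in Osx-Cre;NT3 tumors and 4.43% in FSP1-Cre;NT3 tumors, that of Jup 42.4% and 2.21%, and that of Dsg2 48.1% and 2.69%.

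The SD of log2 CPM was larger in Osx-Cre;NT3 tumors for 8 of 10 members, the exceptions being Dsg1a and Pkp2, against 59.7% of all genes. The median SD of the members was 0.65 in Osx-Cre;NT3 tumors and 0.37 in FSP1-Cre;NT3 tumors, against 0.43 and 0.32 over all genes. With 3 tumors a line, this difference in spread was not tested. Total counts also differed most in Osx-Cre;NT3, where tumor 18 had 163297772 and the other 5 tumors from 51824408 to 75435102.

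Several members had like profiles across tumors. Over the 6 tumors, as a description, Pearson's r of log2 CPM was highest between Dsp and Dsg2 (0.97). Dsg3 and Dsc3 (0.93), Dsp and Jup (0.91), and Dsg2 and Dsc3 (0.85) followed. With the mean of the other members, Pkp2 had an r of -0.74, Dsg1a 0.07, Dsg3 0.51 and Pkp3 0.53. The rest had from 0.69 (Dsc2) to 0.97 (Dsp). The genes outside the lists whose pattern was most like the mean of the 10 members were Msl1 (r = 0.997), Taf5l (0.994), Gorasp1 (0.991), Oxsr1 (0.989) and Fam53c (0.987). With 6 tumors such likeness is common, and 717 of 10252 candidate genes had an r above 0.9.

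The partner ratios within a tumor are free of differences in library size. Dsg3 relative to Dsg2, in RPKM, was 0.0246, 0.0214 and 0.0296 in tumors 13, 18 and 25, against 0.0648, 0.0783 and 0.119 in tumors 27, 29 and 36. The lines did not overlap, and the ratio was 3.39-fold higher in FSP1-Cre;NT3 tumors (log2 1.76, SE 0.29). Dsc3 relative to Dsc2 was 0.951, 0.673 and 0.827 against 2.21, 2.16 and 1.49, so that Dsc2 was above Dsc3 in all 3 Osx-Cre;NT3 tumors and below it in all 3 FSP1-Cre;NT3 tumors, a 2.38-fold difference (log2 1.25, SE 0.23). For both ratios the exact two-sided permutation test gave p = 0.1, the smallest that 3 against 3 tumors allow, and 0.15 after adjustment over the 3 ratios tested. Their numerators, Dsg3 and Dsc3, are the members already without overlap in CPM, so these ratios are not separate results. How common such a lack of overlap is among ratios of other genes was not tested. The third ratio, Pkp1 to Pkp2, was 3.89, 1.90 and 6.50 against 9.12, 11.7 and 4.50, with overlap (2.16-fold, log2 1.11, SE 0.66, exact permutation p = 0.2).

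**Figure D4:**
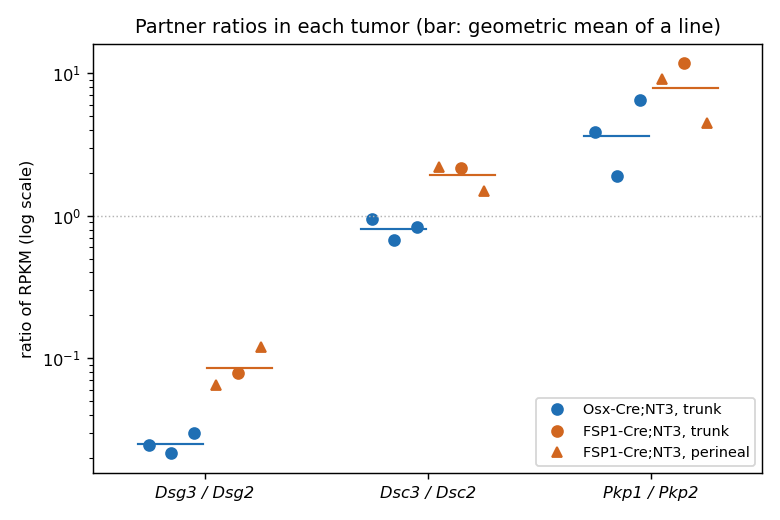
Ratio of RPKM within each tumor (log axis) for 3 pairs of family members, with bars at the geometric mean of each line. Dsg3 to Dsg2 and Dsc3 to Dsc2 do not overlap between the lines, and Dsc3 to Dsc2 crosses 1 (dotted), while Pkp1 to Pkp2 overlaps.

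Shares within the families were read beside these ratios. Dsg3 made up from 0.687% to 1.18% of the RPKM summed over the 3 desmogleins in Osx-Cre;NT3 tumors, and 2.93%, 3.30% and 6.72% in tumors 27, 29 and 36. Dsg1a made up 66.9%, 67.3% and 59.0% in tumors 13, 18 and 25. It made up 51.8%, 54.6% and 36.9% in tumors 27, 29 and 36, lower without overlap. Dsg2 made up 32.3%, 32.0% and 39.8% in tumors 13, 18 and 25. In tumors 27, 29 and 36 Dsg2 made up 45.2%, 42.1% and 56.3%, higher without overlap. As shares are parts of a whole and Dsg3 is a small part, the shifts of Dsg1a and Dsg2 largely mirror each other. In CPM both genes overlapped between the lines. How common such shifts in share are over all genes was not tested. Dsg3 thus remained the smallest part of the desmogleins in all 6 tumors. Pkp2 made up from 4.26% to 18.9% of the plakophilins, with the highest share in tumor 18.

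Perineal and trunk tumors were compared next, 2 against 4. No member differed between the sites past any threshold used. EdgeR called 0 of 10 members, as it called 0% of the 16971 genes tested. At an unadjusted p under 0.05 it found 0 members, where 8.88% of all genes were higher and 1.63% lower in perineal tumors, and DESeq2 called 0 members, where it called 3.52% of all genes. No member was without overlap between the sites either, against 10.3% of all genes higher and 9.36% lower in perineal tumors.

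Dsg3 had the largest site difference, 17.1 CPM on average in perineal against 6.51 CPM in trunk tumors (log2 1.39, SE 0.72, edgeR adjusted p = 0.544). Trunk tumor 29 was above perineal tumor 27. With line as a covariate the site difference of Dsg3 was 0.29 on the log2 scale. As no Osx-Cre;NT3 tumor was perineal, this compares tumors 27 and 36 with tumor 29 alone. The line difference of Dsg3 with site as a covariate was 1.78, against 1.99 without it. That fit sets tumor 29 alone against the Osx-Cre;NT3 tumors. Both covariate values thus rest on tumor 29 and cannot separate line from site. Dsg1a had a log2 difference of -0.64 (SE 0.34, edgeR adjusted p = 0.547) with tumor 36 lowest. The median log2 difference of the members between the sites was -0.11, against -0.02 for all genes.

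**Figure D5:**
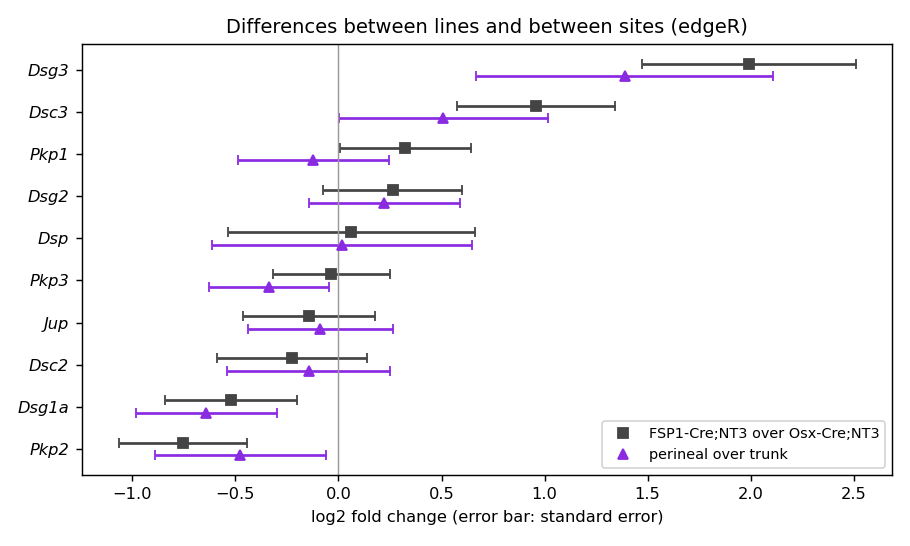
Log2 fold change of each member by edgeR between the lines (squares) and between the sites (triangles), with standard errors. Dsg3 and Dsc3 lie farthest above 0 and Pkp2 farthest below 0 between the lines, and no difference passed an adjusted p under 0.05.

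The order of the tumors by Dsg3 was also that of their latencies. Its CPM was highest in tumor 36 and then fell through tumors 29, 27, 25, 13 and 18, the exact reverse of the order of latencies from 52 to 168 days. It was the sole member with that order, which 0.341% of all genes had. The latencies of the lines do not overlap, so line and latency cannot be told apart, and the relation was not tested.

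The other genes of the desmosome did not differ between the lines past the test. Of the 9 on the list, 8 were tested and 0 were called or had an unadjusted p under 0.05 by edgeR. Perp, a tetraspan protein of desmosomes, had from 844.7 to 1102 CPM in Osx-Cre;NT3 tumors and from 609 to 824 CPM in FSP1-Cre;NT3 tumors. It was lower without overlap (log2 -0.49, edgeR adjusted p = 0.465), as were 7.97% of all genes. Pkp4 ranged from 123 to 252 CPM, and periplakin (Ppl), a plakin of the cornified envelope, from 78.1 to 172 CPM. Corneodesmosin (Cdsn), an adhesive protein of cornified desmosomes, had at most 4.60 CPM in 5 tumors and 31.5 CPM in tumor 36. Envoplakin (Evpl), the partner of periplakin, had from 9.52 to 43.8 CPM.

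The genes of the adherens junction, the actin-linked junction beside the desmosome, behaved alike in the test, with 0 of 10 called and 0 at an unadjusted p under 0.05 between the lines. Cdh1 (E-cadherin) had from 238 to 556 CPM. Ctnnb1 (β-catenin) had from 971 to 1051 CPM in Osx-Cre;NT3 tumors and from 818 to 964 CPM in FSP1-Cre;NT3 tumors, without overlap as for Perp. Of the 11 keratins that desmosomes can anchor, 0 were called by edgeR and 2, Krt6a and Krt16, were higher in FSP1-Cre;NT3 tumors at an unadjusted p under 0.05, as were 7.31% of all genes. Krt6a overlapped between the lines, with 8.07, 6.25 and 12.9 CPM in tumors 13, 18 and 25. It had 14.2, 10.1 and 155 CPM in tumors 27, 29 and 36, and DESeq2 gave no p for it. DESeq2 called Krt16, a keratin of activated epidermis, higher in FSP1-Cre;NT3 tumors (adjusted p = 0.00555), as it called 2.11% of all genes.

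Markers of cell types were read beside these values. Krt5 and Krt14, the keratin pair of basal keratinocytes, had from 2591 to 6087 CPM and from 1637 to 4105 CPM. Basal epithelial RNA was thus present in all 6 tumors, which arose under mesenchymal Cre drivers. The paper regards its enriched skin development terms as likely contamination by overlying skin left at excision. By staining, it found αSMA in most tumor cells of both lines and an epithelial cytokeratin in some areas. Whether the keratin and desmosome RNA came from tumor cells or from overlying skin was not tested. The 7 basal markers summed to between 10134 and 14714 CPM in Osx-Cre;NT3 tumors and between 5926 and 13390 CPM in FSP1-Cre;NT3 tumors. The sum was lowest in tumor 36, which had the highest Dsg3. Of these markers, Krt5, Krt14, Krt15 and Trp63 were lowest in tumor 36. Itga6, Itgb4 and Col17a1 were instead lowest in tumor 18, at 39.5, 177 and 66.3 CPM. They had 185, 239 and 149 CPM in tumor 36. The 6 fibroblast markers summed to between 5194 and 6742 CPM in Osx-Cre;NT3 tumors and between 11545 and 15001 CPM in FSP1-Cre;NT3 tumors, without overlap, as for Dsg3 and Dsc3, and 5 of the 6 were higher at an unadjusted p under 0.05 by edgeR, against 7.31% of all genes. DESeq2, which called Dsg3, also called 4 of the 6 higher (Col1a1, Col1a2, Col3a1 and Pdgfra), against 2.11% of all genes. Their part in the line differences was not tested.

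Tumor 36 stood apart in further markers. The 8 markers of simple epithelium summed to 5029 CPM there, against 717 to 1306 CPM in the other 5 tumors. The 5 of smooth muscle and myoepithelium summed to 2325 CPM, against 266 to 532 CPM. Of the simple epithelium markers, Krt8, Krt19, Epcam, Cldn3 and Cldn7 were highest in tumor 36. Krt18 was highest in tumor 18 (444 CPM, against 245 in tumor 36) and Krt7 in tumor 27 (219 against 98.8). Cldn4 was lowest in tumor 36, at 60.2 CPM. Without tumor 36 the log2 line difference was 1.68 for Dsg3, 0.96 for Dsc3 and -1.04 for Pkp2. The 4 adipocyte markers summed to 34.3 and 123 CPM in perineal tumors 27 and 36, and to at most 12.5 CPM in the trunk tumors. The 5 leukocyte markers ranged from 144 to 271 CPM and the 4 of skeletal muscle from 2.67 to 73.6 CPM. The 4 heart muscle markers summed to from 3.93 to 13.9 CPM, with Tnnt2 from 1.32 to 12.6 CPM, Tnni3 from 1.03 to 4.10 CPM, and Myh6 and Nppa at most 0.377 and 0.205 CPM.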

How the data were processed

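RNA from 6 tumors, 1 per mouse, was sequenced from an Illumina mRNA library whose strandedness is not given in the sources used here. Per the paper's methods, reads were trimmed, aligned to mm10 with HISAT2 and counted with featureCounts, whereas the submitters' processing notes list bcl2fastq, TopHat2 2.0.6 and HTSeq, so the counter is uncertain. The authors deposited raw counts per gene and RPKM values, which are counts scaled by gene length and library size. Total counts ranged from 51824408 to 163297772. Every count is even, as when both ends of a pair are counted. The limit that a count of 0 allows is then 6 counts, from 0.0367 to 0.116 CPM, and it would be 3 counts, from 0.0184 to 0.0579 CPM, if each count were a separate fragment. Both cover counting error only. Between 5.28% and 13.3% of the counts fell on Rn45s, the precursor of ribosomal RNA.

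Lines and sites were taken from the labels. The test on counts was that of edgeR 4.0.16, run in R 4.3.3 (filterByExpr, TMM scaling, glmQLFit and glmQLFTest, Benjamini-Hochberg adjustment over the 16415 or 16971 genes tested), without covariates. DESeq2 1.42.0 was run as an alternative. RPKM served for comparing genes of different length and for partner ratios, with exact permutation tests in SciPy 1.17.1. Log2 CPM had a prior count of 2. The fits were tested on simulated data first. The members and lists were chosen with earlier results of these data known. The genes named are the members, the listed markers and junction genes, and the 5 genes with mean CPM of at least 10 outside the lists whose profile was most like the mean of the members. Krt6a, Krt16 and the heart muscle genes were named after their values were seen. Of the suprabasal list, 7 of 8 genes were found in the table. Annotation of GENCODE M21 and promoters of RefSeq are on the same build as the files. No member overlapped another gene entry of the table.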

Additional observations from a re-analysis of the deposited data

How the results depend on the processing

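No paired analysis was possible because the lines share no tumor number. The line and site comparisons were recomputed with DESeq2, library sizes alone, Rn45s left out, other filters on low counts, the other factor as a covariate, 1 line or site alone, and with every tumor omitted once. A fit on halved counts, and DESeq2 with 1 tumor omitted, were chosen after seeing the data. The number of members called between the lines was 0 with edgeR under each of these, 1 with DESeq2, and from 0 to 5 with DESeq2 without 1 tumor. Between the sites it was 0 under every alternative run, although 1 member had an unadjusted p under 0.05 without tumor 27 and 1 without tumor 29.

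Among single members, the log2 line difference of Pkp3 turned to 0.077 with library sizes alone, 0.31 with site as a covariate and 0.31 in trunk tumors alone. With line as a covariate, the site difference turned to 0.067 for Dsc2, -0.23 for Dsc3, -0.052 for Dsp, 0.050 for Jup and 0.31 for Pkp2, and in FSP1-Cre;NT3 tumors alone to 0.061, -0.24, -0.057, 0.045 and 0.30. Leaving out 1 tumor gave line differences from -0.36 to 1.02 for Dsp, -0.26 to 0.12 for Pkp3, -0.48 to 0.16 for Dsc2 and -0.42 to 0.17 for Jup, and site differences from -0.27 to 0.56 for Dsp, -0.55 to 0.16 for Dsc2, -0.26 to 0.14 for Jup and -0.31 to 0.078 for Pkp1. The cause was not tested. Dsg3, Dsc3, Dsg2 and Pkp1 were higher and Pkp2 and Dsg1a lower in FSP1-Cre;NT3 tumors under every alternative with recorded fold changes. Those of DESeq2 with 1 tumor omitted were not recorded for each member. Dsg3 lay between 1.68 and 2.60, Dsg2 between 0.026 and 0.68, and Pkp1 between 0.078 and 0.70. Dsg3 and Dsc3 do not overlap between the lines, so leaving out a tumor could hardly change their sign.

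In the order by level, 2 members changed place with the median over tumors and 2 with CPM divided by length, and from 2 to 5 without 1 tumor. Dsc3, Dsc2, Pkp2 and Dsg3 kept the last 4 places throughout. The ratio of Dsg3 to Dsg2 kept a log2 difference from 1.51 to 1.95, and that of Dsc3 to Dsc2 from 1.12 to 1.43. Without tumor 29 the line and site comparisons are 1 and the same.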
